A study of Homo sapiens with 6 samples.

Results

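The interferons that A549 cells transcribed and the chains of their receptors were examined as 10 genes, chosen by symbol from the 29845 genes in the count table. They are the type I interferon IFNB1, the type III interferons IFNL1, IFNL2 and IFNL3, and the receptor chains IFNAR1, IFNAR2, IFNLR1, IL10RB, IFNGR1 and IFNGR2. All 10 were among the 16555 genes that passed the filter on low counts and were tested. Polyadenylated RNA of A549, a long-established human lung carcinoma line of epithelial origin, was sequenced in 6 libraries, 3 for each group. The control cells had received the empty pIRES-hrGFP-1a plasmid, and the cells labelled TFAM-OE had received the same plasmid with FLAG-tagged TFAM, the mitochondrial transcription factor A. Both groups had thus been transfected with plasmid DNA and Lipofectamine in the same vector, which also encodes a green fluorescent protein, and no untransfected cells were analysed here. The study's methods describe no selection of the cells that took up plasmid, and in bulk RNA fewer cells with an mRNA and less of it per cell cannot be told apart.

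Interferons are secreted proteins that a cell makes when its sensors detect viral or misplaced nucleic acid. Interferon beta binds the receptor of IFNAR1 and IFNAR2, which nearly all cells carry, and the lambda interferons bind IFNLR1 with IL10RB, a receptor found mainly on epithelial cells such as those of the airway. IFNGR1 and IFNGR2 form the receptor of interferon gamma, the type II interferon of T and natural killer cells. All of these receptors signal through JAK kinases and STAT proteins.

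TFAM itself was covered by 2555, 1878 and 2663 reads in control replicates 1, 2 and 3, and the TFAM-OE-labelled libraries had 2291, 2808 and 2492. The groups overlapped, and edgeR's quasi-likelihood test gave a log2 difference of 0.08 (SE 0.096, adjusted p = 0.623). The targeted mRNA therefore did not separate the groups, and the second group is called here by its label. The study itself judged the overexpression by protein, and reported it as successful from a western blot for the FLAG tag. The libraries held between 26650854 and 37321956 counted reads, with TMM scaling factors between 0.95 and 1.045. Of 6 epithelial markers, the keratins KRT8 and KRT18 were the most abundant, and the summed level of the list was 3050 to 3360 CPM (read counts scaled to library size with the TMM factors) in the control and 2890 to 3540 in the TFAM-OE-labelled libraries. EPCAM, a defining epithelial marker, lay under or near 1 CPM in every library. Of 9 immune cell markers, 3 (CD3E, LILRA4 and CLEC4C) had no read, and PTPRC, which encodes the pan-leukocyte protein CD45, had 1 read in all. The summed level of the immune list was 4.04 to 5.63 CPM against 3.26 to 4.26 CPM, most of it ITGAM. The 7 endothelial and fibroblast markers summed to 4.94 to 5.22 CPM against 3.04 to 5.19 CPM. No marker of the 3 lists was called by edgeR, DESeq2, edgeR's exact test or limma-voom, while 1 epithelial gene lay higher and 1 immune gene lower at an unadjusted p under 0.05.

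IFNB1 (ENSG00000171855.6) is a gene of 1 exon on the minus strand of chr9:21077104-21077942 (GRCh38). The 3 lambda genes lie within 55.2 kb of chromosome 19, IFNL1 at chr19:39296407-39298673 and IFNL2 at chr19:39268396-39270188 on the plus strand, and IFNL3 at chr19:39243455-39245250 on the minus strand. The 250 bases before the start of these genes are shown as a description. Whether these bases bear on the differences between the groups was not tested. They were read from the RefSeq promoter table of GRCh38.p14 and are written 5′ to 3′ on the strand of the gene. Capitals mark matches on either strand to 3 motifs, GAAANNGAA (the type bound by interferon regulatory factors, IRF), GGGNNNTTC (the NF-kappaB type) and TATAAA, and overlapping matches are joined. The windows are chr9:21077943-21078192 for IFNB1, chr19:39296157-39296406 for IFNL1 and chr19:39268146-39268395 for IFNL2.
IFNB1: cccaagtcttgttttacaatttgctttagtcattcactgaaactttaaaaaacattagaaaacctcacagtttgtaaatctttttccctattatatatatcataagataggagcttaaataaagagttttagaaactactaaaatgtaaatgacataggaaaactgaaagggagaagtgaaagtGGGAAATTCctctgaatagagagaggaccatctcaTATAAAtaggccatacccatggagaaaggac
IFNL1: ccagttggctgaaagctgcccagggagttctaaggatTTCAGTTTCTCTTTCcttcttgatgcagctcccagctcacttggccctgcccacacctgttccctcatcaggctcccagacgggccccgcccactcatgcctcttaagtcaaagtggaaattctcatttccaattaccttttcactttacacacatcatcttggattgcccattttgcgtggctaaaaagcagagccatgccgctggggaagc
IFNL2: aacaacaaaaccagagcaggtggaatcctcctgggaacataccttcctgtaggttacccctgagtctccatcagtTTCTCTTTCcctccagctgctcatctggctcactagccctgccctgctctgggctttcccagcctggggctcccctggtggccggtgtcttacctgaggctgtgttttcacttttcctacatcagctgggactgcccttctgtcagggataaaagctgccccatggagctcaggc

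The IFNB1 window held the NF-kappaB type match GGGAAATTC at 66 to 58 bases and a TATAAA at 31 to 26 bases before the start. It held no match to the letters GAAANNGAA. That pattern is strict, so a missing match does not show that a window lacks a site for IRF. The IFNL1 window held 2 overlapping IRF type matches on the opposite strand, at 213 to 205 and 207 to 199 bases. The IFNL2 window held 1 such match at 175 to 167 bases, and the window before the upstream start of IFNL3 (chr19:39245251-39245500) held the same match at the same place. The IFNL2 and IFNL3 windows were identical at 249 of 250 bases, and the 1 difference was C31T, with IFNL2 first and positions counted from 1 at the 5′ end of the window. Among the receptor genes with an entry, IFNLR1 held the NF-kappaB type match GGGACCTTC at 120 to 112 bases and IFNGR2 held one on the opposite strand at 98 to 90 bases. The windows of IFNAR1, IL10RB and IFNGR1 held none of the 3 motifs. Of 35116 promoters of the same length in the table, 6.88% held the IRF type, 13.3% the NF-kappaB type and 10.7% TATAAA, so a match is a description of the letters.

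All 4 interferon mRNAs were present in the control, and each was lower in the other group, by between 10.6-fold and 19.4-fold. A gene was called at an adjusted p under 0.05 and a fold change of at least 2, and 4 of the 10 genes were called lower, beside 2.07% of all genes tested. None was called higher, beside 0.447%. At the adjusted p alone the counts were again 4 lower and 0 higher, beside 4.81% and 3.48% of all genes. IFNB1, IFNL2 and IFNL3 passed the low-count filter only through the control libraries, so that for them a difference was built into being tested.

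IFNB1, which encodes interferon beta, was read 174, 121 and 132 times in control replicates 1, 2 and 3 but 12, 5 and 5 times in the TFAM-OE-labelled libraries. These are 5.18, 4.52 and 3.60 CPM against 0.376, 0.137 and 0.166 CPM. The lowest control library lay above the highest of the other group. The fit gave a level 19.4-fold lower (95% interval 11.8 to 32.0; log2 fold change −4.28, SE 0.32, adjusted p = 7.2e-05, edgeR).

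IFNL1, also known as interleukin 29, was the most abundant interferon, with 261, 187 and 169 control reads against 13, 19 and 11 in the other group. Its levels were 7.76, 6.98 and 4.61 CPM and 0.408, 0.522 and 0.366 CPM, again without overlap. It was 14.7-fold lower (95% interval 9.63 to 22.3; log2 fold change −3.87, SE 0.27, adjusted p = 4.4e-05, edgeR). Unlike the other 3 interferons, IFNL1 also passed the low-count filter in the TFAM-OE-labelled libraries.

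IFNL2 and IFNL3 encode the near-identical proteins also known as interleukins 28A and 28B. IFNL2 had 78, 99 and 82 control reads against 10, 9 and 6 in the TFAM-OE-labelled libraries, a level 10.6-fold lower (95% interval 6.48 to 17.3; log2 fold change −3.40, SE 0.32, adjusted p = 0.00027, edgeR). IFNL3 had 84, 97 and 92 control reads against 13, 6 and 6 in the other group, 11.1-fold lower (95% interval 6.59 to 18.6; log2 fold change −3.47, SE 0.33, adjusted p = 0.0003, edgeR). For both genes control replicate 2 was the highest library, at 3.70 CPM for IFNL2 and 3.62 CPM for IFNL3, and no library of one group reached into the other. Each level of these genes is uncertain, because only uniquely mapped reads were counted. Their coding sequences were 96.2% identical (577 identical bases, 11 mismatches and 12 gaps), and the longest run their transcripts shared was 125 nt. Of the windows of 150 nt, the read length of the study, none of 802 in IFNL2 matched IFNL3 exactly, but 503 lay within 4 mismatches of it. The same held for 503 of 560 windows of IFNL3 (89.8%). IFNL1 was 75.2% identical to IFNL2 and 76.6% to IFNL3, with no 150-nt window within 4 mismatches, and IFNB1 was between 46.3% and 48.1% identical to the lambda genes.

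**Figure D1:**
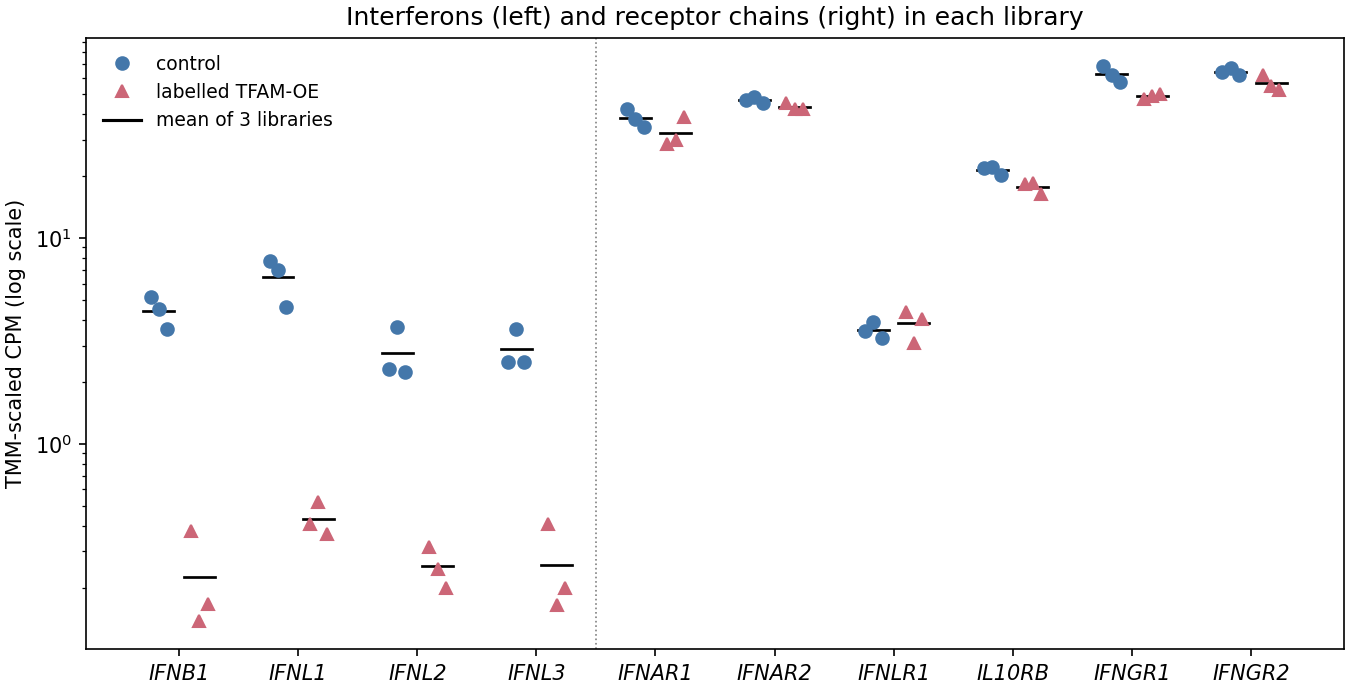
TMM-scaled CPM (log axis) of the 10 genes in each library, with control libraries as circles, libraries labelled TFAM-OE as triangles and the mean of 3 libraries as a bar. The 4 interferons left of the dotted line sit between 2.24 and 7.76 CPM in the control and between 0.137 and 0.522 CPM in the other group, while the receptor chains lie at similar heights in both.

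Added together, the 4 interferons took 597, 504 and 475 control reads against 48, 39 and 28 in the TFAM-OE-labelled libraries. The share of each within the sum of their FPKM, which is scaled for gene length as well as library size, changed less than the sum. IFNL1 held 37.1% ± 4.47 (SD, n = 3) of it in the control and 36.4% ± 10.5 in the other group. IFNB1 held 25.7% ± 2.72 and 17.3% ± 5.86. IFNL2 held 18.5% ± 3.57 and 23.9% ± 1.36, and IFNL3 18.7% ± 3.10 and 22.4% ± 5.91. The shares of IFNL2 did not overlap, with 14.7% to 21.7% in the control and 22.8% to 25.5% in the other group, and those of IFNL1 and IFNL3 did. The shares of IFNB1, 22.7% to 28.0% and 11.8% to 23.5%, overlapped by 1 library. With as few as 28 reads in a library these shares are coarse, and they were not tested.

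**Figure D2:**
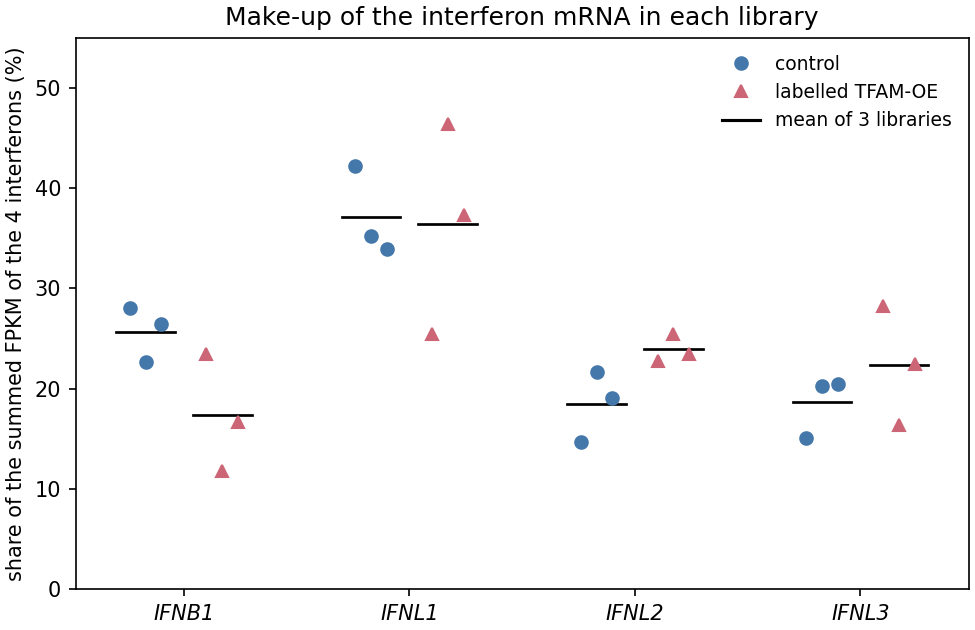
Share (%) of each interferon in the summed FPKM of the 4 in each library, with circles for control, triangles for libraries labelled TFAM-OE and bars for the mean of 3 libraries. IFNL1 is the largest share on average in both groups, at 37.1% and 36.4%, and the triangles are more spread than the circles for IFNB1, IFNL1 and IFNL3.

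The other interferon genes were nearly silent. Of 18, which include the interferon alpha genes, IFNW1, IFNK, IFNG, IFNE and IFNL4, 15 had no read in any library, and none of the other 3 had enough reads to be tested. IFNE, an epithelial type I interferon of the reproductive tract, had 8, 7 and 9 control reads against 4, 5 and 5 in the TFAM-OE-labelled libraries. IFNL4, a lambda gene beside IFNL3, had 3, 6 and 1 control reads against 0 in each TFAM-OE-labelled library. IFNA1 had 1 read in control replicate 1. The lambda pseudogene IFNL3P1 had 6, 1 and 1 control reads against 0, 1 and 2 in the other group. Another interferon pseudogene, IFNWP19, had 10, 19 and 18 control reads against 14, 16 and 13. It was tested and not called (log2 fold change −0.16, adjusted p = 0.824, edgeR). The pseudogenes IFNA22P and IFNA20P had 2 and 1 reads in control replicate 1 and none in any other library.

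None of the 6 receptor chains was called in either direction by edgeR, DESeq2, edgeR's exact test or limma-voom, and 2 of them, IL10RB and IFNGR1, were lower at an unadjusted p under 0.05, beside 13.2% of all genes tested. None was higher at that p, beside 12.2%. Their log2 fold changes lay between −0.36 and 0.11 with a median of −0.20, beside a median of −0.008 over all genes tested, and those of the interferons between −4.28 and −3.40. In 6 of the 10 genes, the 4 interferons with IL10RB and IFNGR1, every library labelled TFAM-OE lay below every control library, as in 15.8% of all genes tested. In none did they all lie above, beside 15.8% of all genes tested in that direction. IFNB1, IFNL2 and IFNL3 passed the low-count filter only through the control libraries, so that for them lying below was partly built into being tested.

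IFNAR1 and IFNAR2 form the receptor of interferon beta and of all other type I interferons. IFNAR1 (chr21:33324387-33359864, plus strand, 11 exons) was measured at 42.5, 37.7 and 34.6 CPM in the control and at 28.6, 30.1 and 38.9 CPM in the TFAM-OE-labelled libraries. The third of these lay among the controls and the other two below them. The level was 0.850 times that of the control (95% interval 0.685 to 1.05, adjusted p = 0.324, edgeR), and without TFAM-OE replicate 3 its log2 difference came to −0.38 at an adjusted p of 0.0396. IFNAR2 (chr21:33205282-33265675, plus strand, 9 exons) varied little, with 46.6, 48.5 and 45.2 CPM in the control and 45.5, 42.2 and 42.4 CPM in the other group. Its fold change was 0.927 (95% interval 0.80 to 1.07, adjusted p = 0.506, edgeR), so that a change of 2-fold lay outside the interval.

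The type III receptor pairs a chain of its own, IFNLR1, with IL10RB, which also serves the receptors of interleukins 10, 22 and 26. IFNLR1 (chr1:24154168-24187959, minus strand, 7 exons) was the least abundant receptor chain and the member with a positive difference, at 3.54, 3.92 and 3.25 CPM in the control and 4.39, 3.08 and 4.06 CPM in the TFAM-OE-labelled libraries. The groups overlapped at a fold change of 1.08 (95% interval 0.814 to 1.43, adjusted p = 0.754, edgeR). IL10RB (chr21:33266367-33311420, plus strand, 7 exons) was measured at 22.0, 22.1 and 20.3 CPM in the control and at 18.2, 18.5 and 16.4 CPM in the other group. These did not overlap, but the difference did not pass the adjusted threshold (fold change 0.826, 95% interval 0.695 to 0.982, adjusted p = 0.157, edgeR).

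IFNGR1 and IFNGR2 form the interferon gamma receptor, of which IFNGR1 is the chain that binds the ligand. IFNGR1 (chr6:137197483-137219449, minus strand, 7 exons) was measured at 68.9, 61.9 and 57.1 CPM in the control and at 47.6, 49.0 and 50.0 CPM in the TFAM-OE-labelled libraries. It was the receptor chain closest to the threshold, at 0.780 times the control level (95% interval 0.666 to 0.913, adjusted p = 0.0591, edgeR). By DESeq2 and by edgeR's exact test its adjusted p was 0.036 and 0.0316, with a difference under 2-fold in each case. IFNGR2 (chr21:33403413-33479348, plus strand, 7 exons) was measured at 63.8, 67.0 and 61.9 CPM in the control and at 62.1, 55.1 and 52.4 CPM in the other group. One library of the latter, replicate 1, lay among the controls, and the fold change was 0.880 (95% interval 0.753 to 1.03, adjusted p = 0.284, edgeR).

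**Figure D3:**
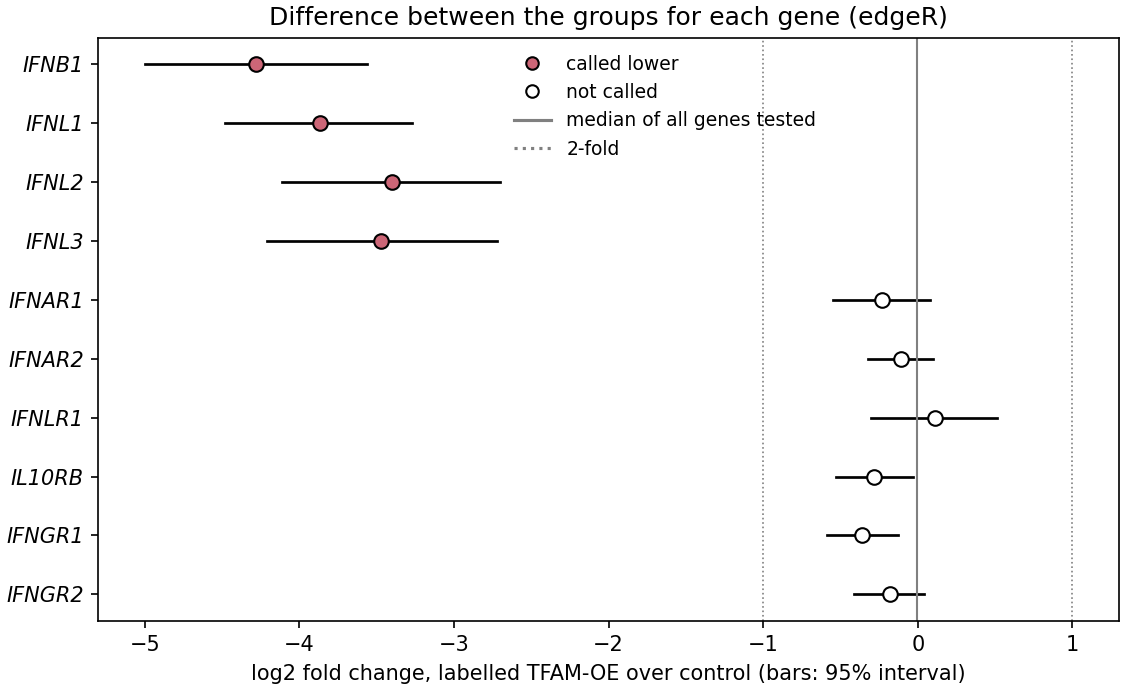
Log2 fold change of each of the 10 genes, libraries labelled TFAM-OE over control, with 95% intervals from edgeR; filled points were called lower and open points were not called, the grey line is the median of all genes tested (−0.008) and the dotted lines mark 2-fold. The intervals of the 4 interferons lie left of the 2-fold line, and those of the 6 receptor chains lie between the dotted lines.

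Of the receptor genes, 4 (IFNAR2, IL10RB, IFNAR1 and IFNGR2) lie within 274.1 kb of chromosome 21. A readthrough gene spans IFNAR2 and IL10RB on the same strand and is listed as AP000295.9. It had 435, 318 and 418 control reads against 365, 317 and 264 in the TFAM-OE-labelled libraries (log2 fold change −0.32, adjusted p = 0.202, edgeR). Reads that it shares with IFNAR2 or IL10RB cannot be assigned from the counts. On the opposite strand, IL10RB-AS1 overlaps IFNAR2, with 58, 53 and 75 reads against 69, 65 and 49. TMEM50B overlaps IFNGR2 in the same way, with 388, 301 and 461 reads against 485, 491 and 380. The library kit is named as stranded in the labels, but the use of strand in counting is not stated. The part of these neighbours in the receptor counts was not tested.

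Per length, the receptor chains were ordered in the control from IFNGR1 at 25.1 FPKM and IFNGR2 at 24.1 FPKM through IL10RB at 9.35 FPKM and IFNAR2 at 9.18 FPKM to IFNAR1 at 5.34 FPKM and IFNLR1 at 0.620 FPKM. IFNGR1 overlapped IFNGR2, and IL10RB overlapped IFNAR2, so these neighbours are not ordered beyond their spread. Among the interferons the order was IFNL1 at 6.46 FPKM and IFNB1 at 4.42 FPKM, then IFNL3 and IFNL2 at 3.19 FPKM each. With both sets in 1 order, IFNL1 overlapped IFNAR1, IFNAR1 overlapped IFNB1, IFNB1 overlapped IFNL3 and IFNL3 overlapped IFNL2. In the control each interferon lay above IFNLR1, the lowest at 2.53 FPKM and the highest value of IFNLR1 at 0.68 FPKM. In the TFAM-OE-labelled libraries each lay below it, the highest (IFNL1) at 0.51 FPKM and the lowest value of IFNLR1 at 0.52 FPKM. Both values are from TFAM-OE replicate 2 and rest on 19 reads of IFNL1 and 112 of IFNLR1, so that gap is too small to order them.

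Because each receptor is a pair, the ratio of its chains was taken within each library, where library scaling cancels. IFNAR1 over IFNAR2 was 0.646, 0.552 and 0.544 in the control and 0.447, 0.507 and 0.650 in the other group. IFNLR1 over IL10RB was 0.0638, 0.0713 and 0.0637 against 0.0956, 0.0662 and 0.0981, and IFNGR1 over IFNGR2 was 1.15, 0.983 and 0.982 against 0.816, 0.948 and 1.02. All 3 ratios overlapped between the groups. The differences in mean log2 ratio were −0.13, 0.37 and −0.17, and an exact permutation test over the libraries, two-sided, gave p = 0.5, 0.2 and 0.3 (0.5, 0.45 and 0.45 adjusted over the 3 ratios). The smallest p that 3 against 3 libraries can give is 0.1.

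**Figure D4:**
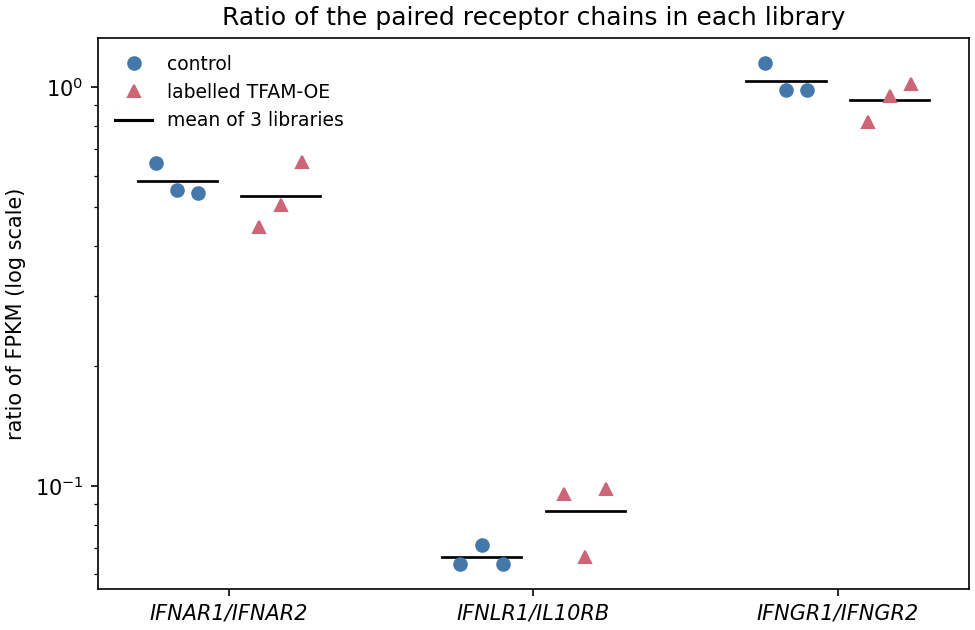
Ratio of FPKM (log axis) of the paired chains of the type I, type III and type II receptor in each library, with circles for control, triangles for libraries labelled TFAM-OE and bars for the mean of 3 libraries. The groups overlap in each pair, and the type III chain IFNLR1 is found at between 0.0637 and 0.0981 of IL10RB.

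The genes with the profile nearest to IFNB1 were found by the root mean square distance between log2 values centred on each gene's mean, over the 6 libraries and among 13974 genes with a mean of at least 1 CPM. They were IFIT2 at a distance of 0.13, TRIM22 at 0.18, IFI44 and CCL5 at 0.19 and IFNL1 at 0.21. IFNL3 ranked 24 (0.36) and IFNL2 ranked 36 (0.42), while the receptor chains lay at 1.22 to 1.43. The distance is a description, set mainly by the difference between the groups. It also depends on the 0.5 added to CPM before logs, which exceeds every TFAM-OE-labelled level of IFNB1 and shrinks its difference. In the edgeR fit the log2 fold change was −4.28 for IFNB1. It was −2.81 for IFIT2, −2.59 for TRIM22, −2.87 for IFI44 and −3.02 for CCL5, so nearness here does not mean a fall of equal size. CCL5, a chemokine, was measured at 152, 112 and 72.6 CPM in the control and at 16.9, 12.6 and 11.9 CPM in the TFAM-OE-labelled libraries. TRIM22, an antiviral restriction factor, was measured at 28.3, 30.1 and 25.2 CPM against 5.42, 4.10 and 4.40 CPM.

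Among the genes that lead to interferon transcription, 5 of the 16 tested were called lower, beside 2.07% of all genes tested. None was called higher, beside 0.447% (0 of 16 also by DESeq2, the exact test and limma-voom, with 3 higher at an unadjusted p under 0.05). The list median was −0.39. The list had 17 genes, and TMEM173, which encodes the DNA sensor adaptor STING, had too few reads to be tested, with 4, 5 and 4 against 4, 8 and 7. IFIH1 (MDA5) and DDX58 (RIG-I), sensors of double-stranded RNA in the cytoplasm, fell by 2.20 and 2.04 on the log2 scale (adjusted p = 1.8e-05 for each, edgeR). TLR3, the endosomal sensor of double-stranded RNA, fell by 1.80 (adjusted p = 0.00036), and IRF7, a transcription factor of interferon genes that interferon itself induces, fell by 1.93 (adjusted p = 0.00132). The fifth, DHX58, lies outside the naming rule and fell by 1.61. Whether these 5 genes fell before or after the interferons was not tested. Of these, IFIH1 was the tightest, with a lowest control level of 44.8 CPM and a highest level of 10.1 CPM in the other group. At an unadjusted p under 0.05 (edgeR), 10 genes of the list were lower and 3 higher, beside 13.2% and 12.2% of all genes tested. The 3 higher, also outside the naming rule, were MAVS, IKBKE and IRF3, with log2 fold changes of 0.40, 0.34 and 0.29.

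STAT2, a transcription factor downstream of the type I and III receptors, fell by 1.02 on the log2 scale (SE 0.16, adjusted p = 0.00552, edgeR), which was under 2-fold without control replicate 2 (−0.98), control replicate 3 (−0.90) or TFAM-OE replicate 3 (−0.93). IRF9, which acts in a complex with STAT2, had at most 5 reads in a library and was not tested. Among the 8 feedback inhibitors of the receptors, 2 were called lower and 1 higher, beside 2.07% and 0.447% of all genes tested. The median of these inhibitors was −0.17. USP18, which binds IFNAR2 and blocks signalling, fell by 1.76 (adjusted p = 0.001, edgeR), and SOCS1, an inhibitor of JAK kinases, fell by 1.09 (adjusted p = 0.0282, edgeR). PTPN6, the phosphatase SHP-1, rose by 1.01 (adjusted p = 0.00178, edgeR). The calls of both SOCS1 and PTPN6 were lost when some single libraries were left out. SOCS1 was called only without TFAM-OE replicate 1 among the fits that left out a library, and in the other 5 its log2 difference was between −1.21 and −0.90 with adjusted p of 0.0266 to 0.139. PTPN6 was just under 2-fold without control replicate 1 (0.96), TFAM-OE replicate 2 (0.99) or TFAM-OE replicate 3 (0.98). Its adjusted p stayed under 0.05 in these fits, at 0.0148, 0.0182 and 0.000577 (edgeR), so only the fold threshold was missed.

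All 20 listed targets of type I and III interferon passed both thresholds in the lower direction, beside 2.07% of all genes tested. Their median log2 difference was −2.96, with a range from −4.0 to −1.38. The list was chosen with results of these data known, and USP18 is in it as well as among the inhibitors. The 4 with the smallest p were IFI44L, RSAD2, OAS2 and IFI44, which fell by 3.66, 3.78, 3.45 and 2.87 (adjusted p = 1.8e-05 for each, edgeR). RSAD2 encodes the antiviral enzyme viperin, and OAS2 a sensor that activates RNase L. Of the listed targets of interferon gamma, 8 of 17 tested were called lower, beside 2.07% of all genes tested. None was called higher, beside 0.447% (0 higher also by DESeq2, the exact test and limma-voom, with 1 at an unadjusted p under 0.05). The median of this list was −1.09. GBP1, a guanylate-binding protein, fell by 2.14 (adjusted p = 1.8e-05, edgeR), the chemokine gene CXCL11 by 2.85 (adjusted p = 0.00027, edgeR), CD274, which encodes PD-L1, by 1.41 (adjusted p = 0.0005, edgeR), and IDO1, an enzyme that degrades tryptophan, by 2.43 (adjusted p = 0.00102, edgeR). The log2 fold changes of this list reached from −2.85 (CXCL11) to 1.03 (HLA-DMB, not called). IFNG had no read in any library, and which interferon these genes answered to was not tested. Of the 8, CXCL11 and GBP5 passed the low-count filter only through the control libraries, so that for them too a difference was built into being tested. SOCS1 is also on this list, and CXCL10, another of the 8, was not called without TFAM-OE replicate 2 (log2 fold change −1.82, adjusted p = 0.0586, edgeR). Without TFAM-OE replicate 3, CD74, which also passed that filter only through the control, was called lower (−2.46, adjusted p = 0.00717, edgeR) and HLA-DMB higher (1.28, adjusted p = 0.0468, edgeR).

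Of the related cytokine receptors, 3 of 6 were tested and none was called by edgeR, DESeq2, the exact test or limma-voom, with 1 lower at an unadjusted p under 0.05 and a median of −0.43. IL10RA had too few reads to be tested, with 24, 8 and 26 in the control against 8, 1 and 3 in the TFAM-OE-labelled libraries. It passed both thresholds in the edgeR fit on every gene with a read (log2 fold change −2.21, adjusted p = 0.00066). In that fit no gene kept a spread of its own. IL22RA1, which pairs with IL10RB to bind interleukin 22, had a log2 fold change of −0.26 (adjusted p = 0.413, edgeR). F3, tissue factor, a distant relative of these receptors, had one of −0.88 (adjusted p = 0.017, edgeR), past the adjusted p but short of 2-fold. Of the 6 ligands of the interleukin 10 family, 4 had no read and 1 was tested. This was IL24, which fell by 3.35 (SE 0.45, adjusted p = 0.00279, edgeR), from 16.2, 8.92 and 6.44 CPM to 1.6, 1.10 and 0.366 CPM.

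**Figure D5:**
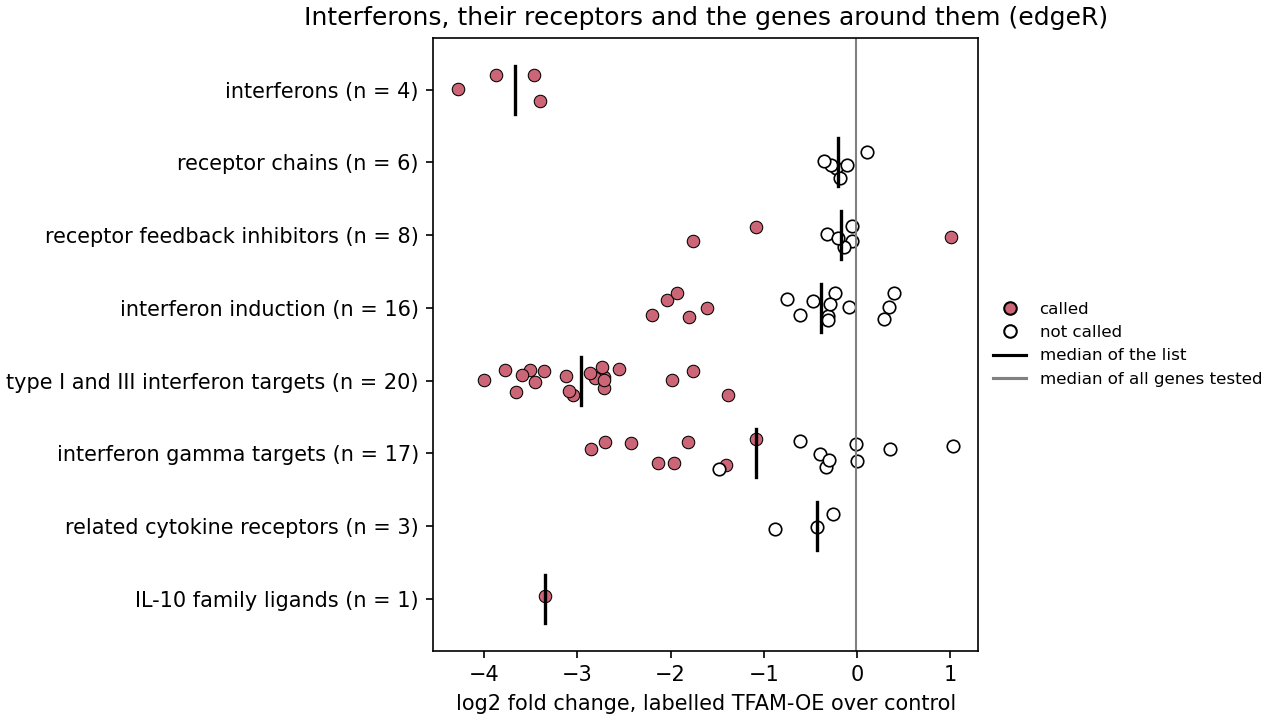
Log2 fold change (libraries labelled TFAM-OE over control) of the tested genes of each list, with filled points for called genes, open points for genes not called, a black bar for the list median and a grey line for the median of all genes tested. The 4 interferons and the 20 targets of type I and III interferon lie to the left with medians of −3.67 and −2.96, the receptor chains lie near the grey line at −0.20, and vertical scatter within a row has no meaning.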

How the data were processed

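Poly(A) RNA libraries of A549 cells, 3 per group and described by the authors as biological replicates, were sequenced. The authors aligned reads to GRCh38 with TopHat2 allowing 4 mismatches, and deposited for each gene and library a raw count of uniquely mapped reads and an FPKM value. Which program and annotation gave the counts, and whether strand was used, is not given in the sources used here. Unused value columns numbered 0, and counts carry no molecular identifiers.

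Counts were tested in R (4.3.3) with edgeR's quasi-likelihood test (4.0.16), two-sided, after TMM scaling and filterByExpr (at least 0.303 CPM in 3 libraries), with Benjamini-Hochberg adjustment over the 16555 genes kept. That filter was used because with every gene that had a read the prior degrees of freedom were infinite (5.98 with the filter), so that no gene kept a spread of its own. CPM are TMM-scaled. Means and SDs are over 3 libraries, and intervals are from the edgeR fit at 95%. FPKM were used as deposited for orders, shares and ratios, and for profiles 0.5 was added to CPM before logs. Alternatives were DESeq2 (1.42.0), limma (3.58.1), other scalings and filters, libraries left out and a replicate block.

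Positions come from GENCODE (44), which held 97.2% of the gene IDs, promoters from RefSeq, and alignments were made in Python (3.11.15) with Biopython (1.88). Figures were drawn with matplotlib (3.10.9). Members and lists were chosen with earlier results of these data known. Named are all members, up to 4 called genes in each direction per list by smallest p, 2 genes of highest mean CPM for a list with none called, the 5 profiles nearest to IFNB1, and overlapping genes. Results for the list of receptor kinases and STATs as a whole are not reported here.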

Additional observations from a re-analysis of the deposited data

How the results depend on the processing

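The 4 interferons kept their direction and their call under all 19 alternatives, and no receptor chain was called under any. Most alternatives used the same low-count filter, which IFNB1, IFNL2 and IFNL3 passed only through the control libraries. For them those repeated calls are therefore not separate support for the difference. The adjusted p alone was the main fit at another threshold. The log2 fold change of IFNB1 ranged from −4.84 to −2.15, of IFNL1 from −4.07 to −2.36, of IFNL2 from −3.57 to −1.68 and of IFNL3 from −3.95 to −1.71, with the smallest differences on log2(FPKM + 1), where the added 1 exceeds their level in the TFAM-OE-labelled libraries. IFNLR1 changed sign, to −0.0002, without TFAM-OE replicate 1, and ranged up to 0.25 with other libraries left out. The adjusted p of IFNGR1 was under 0.05 in 3 alternatives (the lowest 0.0292, without TFAM-OE replicate 3) and ranged up to 0.229, and that of IFNAR1 was under 0.05 in 1 (range 0.0396 to 0.697), all under 2-fold. The 36 pathway genes called lower numbered between 26 and 40. The number called higher, 1 (PTPN6), became 0 with library size alone, on both log2(FPKM) scales, without TFAM-OE replicate 2 and without control replicate 1. Without TFAM-OE replicate 3 it was again 1, but PTPN6 was not called and HLA-DMB was, so that leaving out a library gave 0 to 1. The median of all genes stayed between −0.036 and −0.001.

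Deviations of same-numbered libraries correlated at −0.22, 0.01 and −0.27, so the numbers were not taken as pairs. With a replicate block, 4 members were again called lower and 0 higher, and the adjusted p of IFNGR1 was 0.203. Each interferon had 5 to 19 reads in a TFAM-OE-labelled library, and each group had 3 libraries, which limits the precision of these differences.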
